A study of Mus musculus with 9 samples.

Results

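The translation initiation factor genes were taken as every gene symbol of the deposited matrices that begins with Eif and a digit, leaving out symbols marked as pseudogenes. The rule found 56 of the 31053 genes listed and used no measured value. Nuclei of pooled cortex and hippocampus had been profiled by droplet single-nucleus RNA sequencing in 9 male wild-type C57BL/6 mice, 1 library per mouse and 3 mice per group. Young AAV-EGFP mice were 5 months old, and both Aged AAV-EGFP and Aged AAV-B3GNT3 mice were 19 months old. By the study's methods, aged mice came from a National Institute on Aging colony and young mice from Jackson Laboratories. Age and supplier therefore cannot be told apart in any comparison of aged with young mice. All 9 mice had received a blood-vessel-directed adeno-associated virus 8 weeks before tissue was taken, so the controls carried a virus too. The virus encoded EGFP alone, or EGFP together with B3GNT3, a glycosyltransferase of mucin-type O-glycan synthesis, in each case under a shortened claudin-5 promoter meant for brain endothelial cells.

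Initiation factors bring a ribosome to the start codon of an mRNA. The factor eIF4F binds the cap at the 5′ end and unwinds the leader, eIF3 scaffolds the small subunit, and eIF2 carries the initiator tRNA as a ternary complex with GTP. eIF1 and eIF1A keep the scanning ribosome open until a start codon is met, eIF5 and eIF5B drive GTP hydrolysis and subunit joining, and eIF2B recharges eIF2. 4 kinases phosphorylate the alpha subunit of eIF2 under stress, which slows general initiation, and the 4E-binding proteins hold back the cap-binding protein eIF4E until the kinase complex mTORC1 releases it.

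The libraries held 77823 barcodes, of which 70347 were kept as nuclei, and the total per library ranged from 47332047 to 79964605 unique molecular identifiers (UMIs, each standing for 1 captured RNA molecule). Of the 77081 distinct barcode sequences, 734 occurred in more than 1 library. 7 marker-defined classes were tested: 20137 excitatory neurons, 10717 inhibitory neurons, 8469 astrocytes, 20338 oligodendrocytes, 2804 oligodendrocyte precursors, 2295 microglia and 768 brain endothelial cells. The 1825 fibroblasts and 970 pericytes were also named from markers and are not compared here. All listed markers of astrocytes, oligodendrocytes, oligodendrocyte precursors, microglia and brain endothelial cells stood out in their clusters. Of the 4 inhibitory clusters 1 had Rarb and Drd2 as its leading genes and 1 had Tacr1, which are not among the markers of that class. Counts were summed per mouse and class, levels within a class are given as CPM, the usual counts of UMIs scaled to one common total, here after TMM normalization (trimmed mean of M values), and a change was called at an adjusted p under 0.05 in edgeR's quasi-likelihood test over all genes of the class.

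54 of the 56 genes had at least 1 UMI in the kept nuclei. Eif4e1b and Eif4ebp3 had none of the 433800996 UMIs, which allows up to 0.00692 CPM of counted UMIs. Eif4ebp3 overlaps another gene on its own strand, where reads may have gone uncounted, so this is no limit on its expression. Eif2c5 and Eif3j2 had only 4 and 49 UMIs. These 4 genes were tested in no class. Of the other 52, all passed the filter on low counts in excitatory and in inhibitory neurons, 51 did so in astrocytes and in oligodendrocytes, 42 in oligodendrocyte precursors, 36 in microglia and 23 in brain endothelial cells. By role the 56 genes comprised 12 of start-codon scanning and the ternary complex, 5 of the exchange factor eIF2B, 4 eIF2 alpha kinases, 14 of eIF3, 11 of the cap complex, 4 that bind and restrain or carry eIF4E, 4 of joining and later steps, the exon-junction helicase Eif4a3 and the long non-coding gene Eif2c5. Together they gave 0.171% to 0.219% of all UMIs in the 9 libraries.

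The start sites of the 7 genes named first in each comparison and of Eif1b, the close relative of Eif1, are shown, because mRNAs of the translation machinery often begin with a terminal oligopyrimidine run, a C followed by T and C bases at the transcription start through which mTORC1 controls their use. Each window holds 15 bases on either side of the start in RefSeq (GRCm38.p6), 5′ to 3′ on the gene strand, and a run was scored where a C within 10 bases of the start had at least 4 pyrimidines directly after it. Capitals mark the run from the qualifying C nearest the start to its last pyrimidine, and lower-case pyrimidines before it may belong to the same stretch.
Eif1, chr11:100319934-100319963, plus strand: gcgctggcgtcacaggggcggctatataag
Eif1b, chr9:120492591-120492620, plus strand: gcggcgcgcggggctaaatacgcggcgccg
Eif3f, chr7:108934400-108934429, plus strand: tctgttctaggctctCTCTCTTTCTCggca
Eif3d, chr15:77970810-77970839, minus strand: gtggtagggccatttacgacagcgctggtc
Eif2s2, chr2:154892892-154892921, minus strand: cacgtaaggttggctttactgtacgcctgc
Eif2ak2, chr17:78882558-78882587, minus strand: cccagagcagtgtgggaaggcggagtccgc
Eif2b5, chr16:20498802-20498831, plus strand: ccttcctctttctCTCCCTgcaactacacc
Eif5b, chr1:37997995-37998024, plus strand: ggcgcctgggttcccacctggccggcggct
Of these 8 windows, those of Eif3f and Eif2b5 held such a run. A run was found in 17 of the 44 initiation factor genes with a RefSeq start (38.6%), in 39 of 63 cytosolic ribosomal protein genes (61.9%) and in 34.4% of all 27025 genes with a start. Counted per start, the share over all 32851 starts was 30.7%.

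Across classes the initiation factor genes were lowest in neurons for most members (the plot of levels by class). The mean over the 9 mice, on raw library totals, was lowest in excitatory neurons for 30 of the 52 genes and in inhibitory neurons for 10, and among these 7 classes it was highest in brain endothelial cells for 34 and in microglia for 14. These are shares of the RNA counted in a class, with free RNA not subtracted, and no test was made between classes. Markers of other classes stood at 31.5% to 69.5% of their level over the whole library in microglia. In brain endothelial cells they stood at 49.8% to 67.0%, and the part of such RNA in these ranks was not tested. Only 23 of the 52 genes passed the filter on low counts in brain endothelial cells, so part of these ranks rests on few UMIs. The leading class could also change between mice. Eif4a2 and Eif3c had their highest mean in brain endothelial cells, which led in 3 of 9 mice for each. Eif5 had its highest mean in microglia, which led in 3 of 9. Eif1, whose product guards start-codon choice, had its highest share in brain endothelial cells, at 237 ± 137 CPM (mean ± SD, n = 9), against 72.0 in oligodendrocytes and 30.3 in excitatory neurons, and the endothelial value led in 9 of 9 mice. Eif2ak2, the kinase that responds to double-stranded RNA, spanned a wide range: 53.0 CPM in microglia, 42.6 in brain endothelial cells, 36.4 in astrocytes and 15.7 in oligodendrocyte precursors. It was 5.04 in inhibitory neurons, 3.14 in excitatory neurons and 3.01 in oligodendrocytes. Microglial and endothelial levels overlapped between mice, and microglia led in only 4 of 9. Eif4e3, a cap-binding relative of eIF4E, was low in astrocytes at 1.94 CPM and stood at 7.32 and 8.27 in excitatory and inhibitory neurons. Its highest means were 9.48 in microglia and 9.45 in brain endothelial cells. Eif4h, Eif4g2, Eif4a2 and Eif4enif1 were higher in all 4 glial classes than in both neuron classes in 9 of 9 mice, and no gene showed the opposite in all 9.

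**Figure D1:**
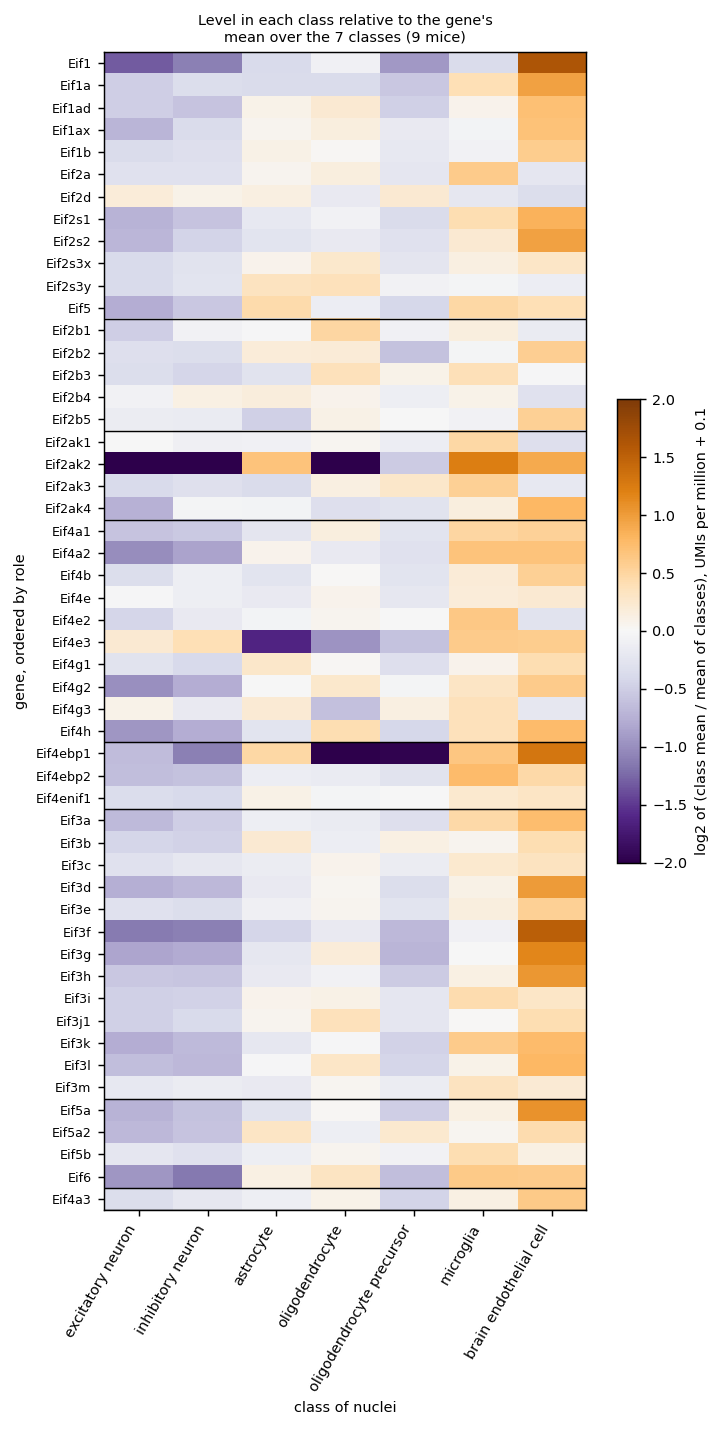
Level of each of the 52 tested genes (rows, ordered by role) in 7 classes (columns), as log2 of the class mean over the mean of the 7 classes, from CPM plus 0.1 on raw library totals in 9 mice. The endothelial column is mostly orange (higher) and the excitatory column mostly purple (lower), and Eif2ak2 ranges from 3.01 CPM in oligodendrocytes to 53.0 in microglia.

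The first comparison asked how the initiation factor genes differed between Aged AAV-EGFP and Young AAV-EGFP mice. Most members did not pass the test, and those that did were led by Eif1, which rose in 5 of the 7 classes, and by Eif3f, which rose in 3. In excitatory neurons 4 of 52 rose and 3 fell, where 7.38% of all tested genes rose and 6.56% fell. In inhibitory neurons 2 rose and 1 fell (2.04% and 1.11% of all genes), in astrocytes 2 of 51 rose and 1 fell (4.82% and 7.39%), and in oligodendrocytes 3 of 51 rose and 0 fell (11.1% and 10.5%). In brain endothelial cells 1 of 23 rose and 0 fell (1.3% and 0.12%). In oligodendrocyte precursors 0 of 42 passed in edgeR (0.171% of all genes rose and 0.019% fell), while 4 had an unadjusted p under 0.05. In microglia 0 of 36 passed in edgeR (0% and 0%), while 3 had an unadjusted p under 0.05. DESeq2 also called 0 members in these classes. With so few genes called at all, these counts do not show that the members were alike between the groups. Read against these shares, the members' calls in excitatory neurons and the rises in astrocytes were close to the background. The calls in oligodendrocytes and the falls in astrocytes were a smaller share than that of all genes. Those in inhibitory neurons and the rise in brain endothelial cells were a larger share. The counts are small, and no test of these differences was made. The median log2 fold change of the members lay between -0.03 and 0.22 in the 7 classes, and that of all genes between 0.00 and 0.02.

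**Figure D2:**
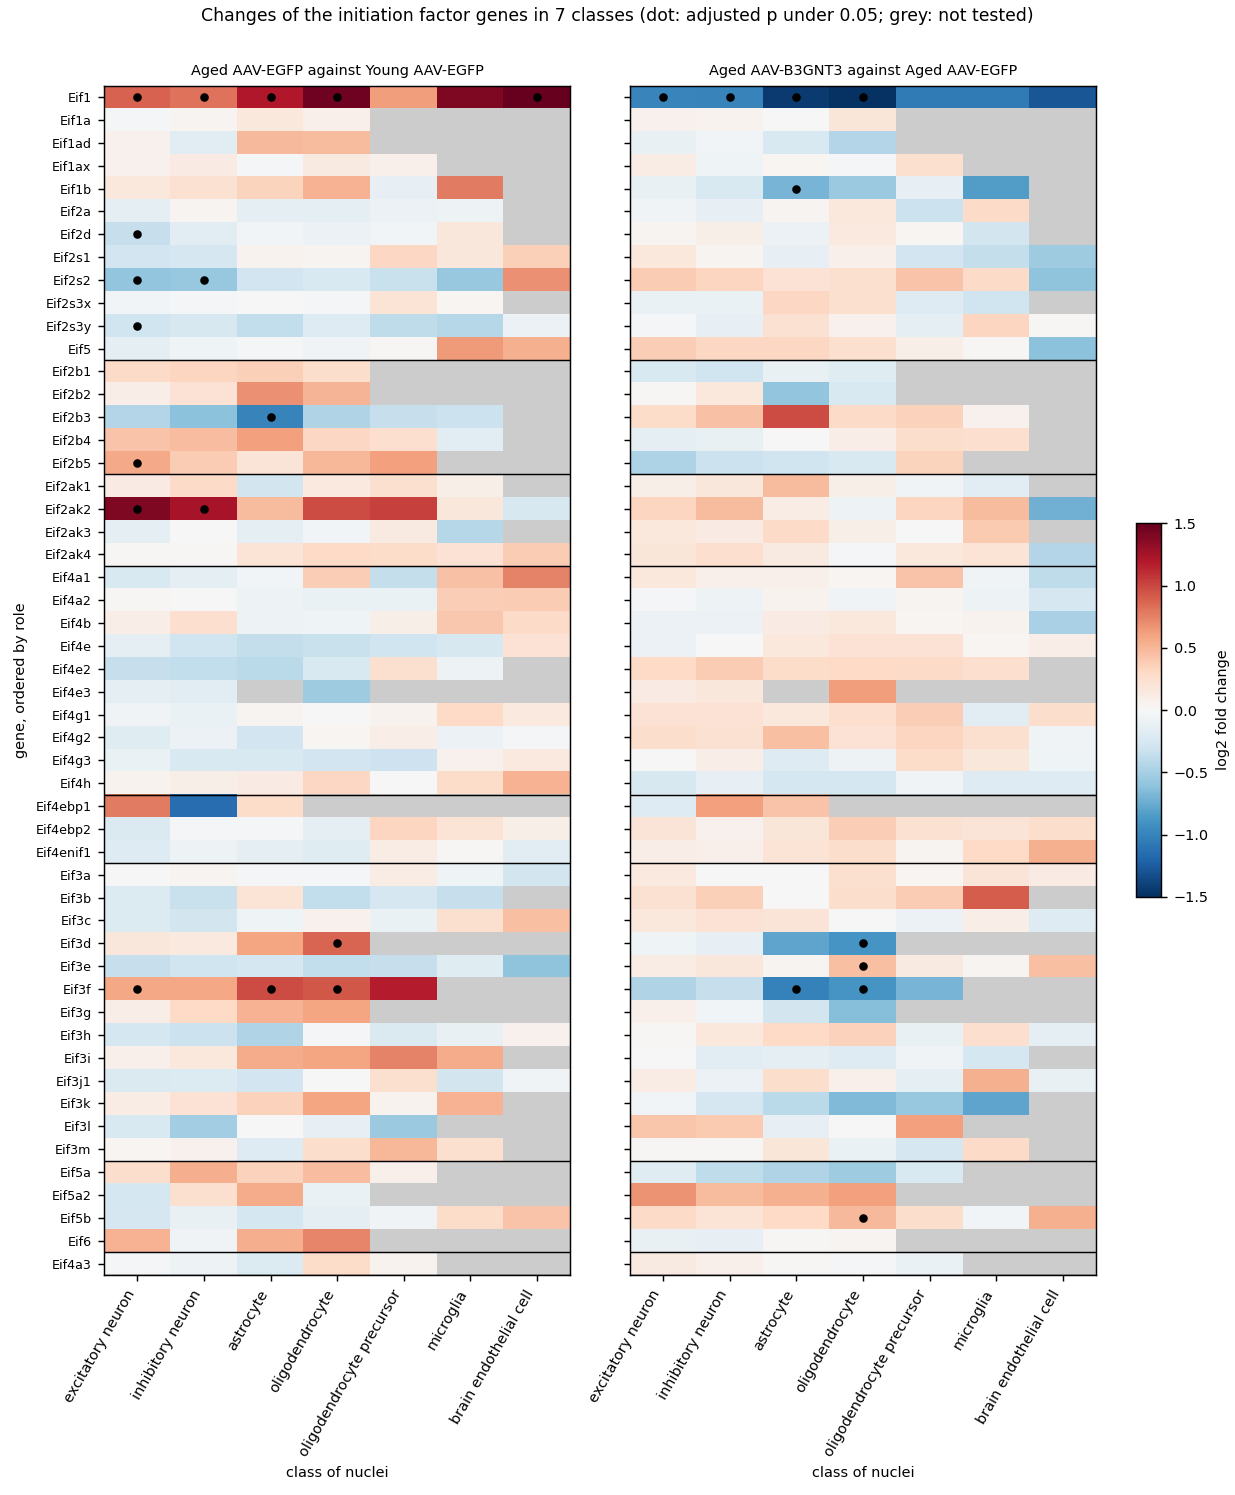
log2 fold change of the 52 tested genes (rows, ordered by role) in 7 classes (columns) for ageing (left) and for AAV-B3GNT3 (right). Black dots mark an adjusted p under 0.05 in edgeR and grey cells were not tested, and the Eif1 row is red throughout on the left and blue throughout on the right, with 5 and 4 dots.

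Eif1 (chr11:100319885-100322096, plus strand, GRCm38) was the most widely changed member. In astrocytes its level was 41.1, 49.7 and 37.4 CPM in the Young AAV-EGFP mice, 80.5, 120.1 and 95.8 in the Aged AAV-EGFP mice and 36.7, 35.2 and 37.6 in the Aged AAV-B3GNT3 mice. Every Aged AAV-EGFP mouse lay above every mouse of the other groups. The log2 fold change in ageing was 1.20 ± 0.17 (SE, n = 3 mice per group, adjusted p = 0.000615 in edgeR). In oligodendrocytes the same groups read 41.8, 53.3 and 44.4, then 83.5, 165 and 133, then 40.7, 44.0 and 51.8 CPM. The groups again did not overlap, and the rise was 1.46 ± 0.21 on the log2 scale (adjusted p = 0.00187, edgeR). In brain endothelial cells, the cells the virus was aimed at, the young mice read 132, 199 and 154 CPM, the Aged AAV-EGFP mice 296, 525 and 586 and the Aged AAV-B3GNT3 mice 146, 153 and 291. These rest on 26 to 104 UMIs per mouse, and the rise of 1.55 ± 0.32 (adjusted p = 0.0335, edgeR) held in only 1 of 9 fits that left out 1 mouse.

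Eif1 rose in both neuron classes as well. In excitatory neurons Eif1 rose from 24.3 ± 3.85 to 44.7 ± 11.3 CPM (mean ± SD, n = 3 each), a log2 fold change of 0.88 ± 0.20 (adjusted p = 0.0181, edgeR). In inhibitory neurons it rose from 29.4 ± 1.07 to 51.8 ± 5.88, by 0.82 ± 0.13 (adjusted p = 0.0279, edgeR). In microglia the means were 37.6 and 100.4 CPM with a log2 difference of 1.40 ± 0.24, which did not pass (adjusted p = 0.108, edgeR), and in oligodendrocyte precursors the difference was 0.63 ± 0.19 (adjusted p = 0.145, edgeR). Groups did not overlap in either class. With an estimate of free RNA subtracted from each class the ageing calls stood in excitatory neurons, astrocytes and oligodendrocytes (adjusted p 0.0422, 0.0186 and 0.0175) and were lost in inhibitory neurons and brain endothelial cells (0.0833 and 0.113, edgeR). In inhibitory neurons and brain endothelial cells the estimate exceeded the limit of 30% in every library, so the same share was taken from each group. In oligodendrocytes it exceeded the limit in some Young AAV-EGFP and Aged AAV-B3GNT3 libraries and in no Aged AAV-EGFP library. With 1 mouse left out the ageing calls of Eif1 stood in 9 of 9 fits in astrocytes and in oligodendrocytes, and in 5 of 9 in each neuron class.

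The share of UMIs from cytosolic ribosomal protein genes, whose mRNAs are short and abundant in cytoplasm, moved with Eif1. In oligodendrocytes it was 0.119% to 0.145% in the young mice, 0.190% to 0.280% in the Aged AAV-EGFP mice and 0.123% to 0.145% in the Aged AAV-B3GNT3 mice. In astrocytes the ranges were 0.124% to 0.142%, 0.158% to 0.216% and 0.113% to 0.123%, and in brain endothelial cells 0.293% to 0.454%, 0.618% to 0.879% and 0.281% to 0.374%. The Aged AAV-EGFP mice were above both other groups in each of these classes, as they were for Eif1, and the part of this share in the Eif1 result was not tested. Markers of other classes moved with the groups too. In astrocytes the summed level of the 8 oligodendrocyte markers was 438 to 578 CPM in the young mice, 256 to 362 in the Aged AAV-EGFP mice and 397 to 434 in the Aged AAV-B3GNT3 mice, with all 8 detected in every library. In oligodendrocytes that of the 7 excitatory neuron markers was 324 to 367, 153 to 284 and 269 to 330, again with all 7 detected in every library. Microglial markers were higher in the aged controls: the 8 summed to 47.2 to 55.6 CPM in astrocytes of the young mice, 59.6 to 74.5 in the aged controls and 52.7 to 63.7 in the treated mice, with 6 of 8 detected in every library. They summed to 98.4 to 142, 198 to 217 and 80.0 to 233 in brain endothelial cells, with 1 of 8 detected in every library. In inhibitory neurons the 8 oligodendrocyte markers summed to 166 to 271, 126 to 156 and 183 to 215 CPM, with all 8 detected in every library. The markers of each other class overlapped there between young mice and aged controls. The ribosomal share in these neurons was 0.07083% to 0.07765%, 0.0855% to 0.11135% and 0.06855% to 0.08329%. The part of these markers and shares in the changes of Eif1, and of Eif3f, Eif3d, Eif2ak2, Eif2s2 and Eif2b3 below, was not tested. The share of UMIs from all initiation factor genes together was 0.219% ± 0.00389, 0.221% ± 0.0142 and 0.243% ± 0.00806 in oligodendrocytes of the young, aged control and treated mice (mean ± SD, n = 3 each). In brain endothelial cells it was 0.295% ± 0.00507, 0.344% ± 0.0458 and 0.323% ± 0.0101, with every aged control above every young mouse. In excitatory neurons, inhibitory neurons, astrocytes and oligodendrocyte precursors the mean of the aged controls was below that of the young mice, for example 0.169% ± 0.0109 against 0.183% ± 0.0118 in inhibitory neurons, and in microglia it was above (0.294% ± 0.0443 against 0.260% ± 0.0345). The treated mice had the highest mean in each of these classes, for example 0.193% ± 0.00396 in inhibitory neurons and 0.319% ± 0.0129 in microglia.

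**Figure D3:**
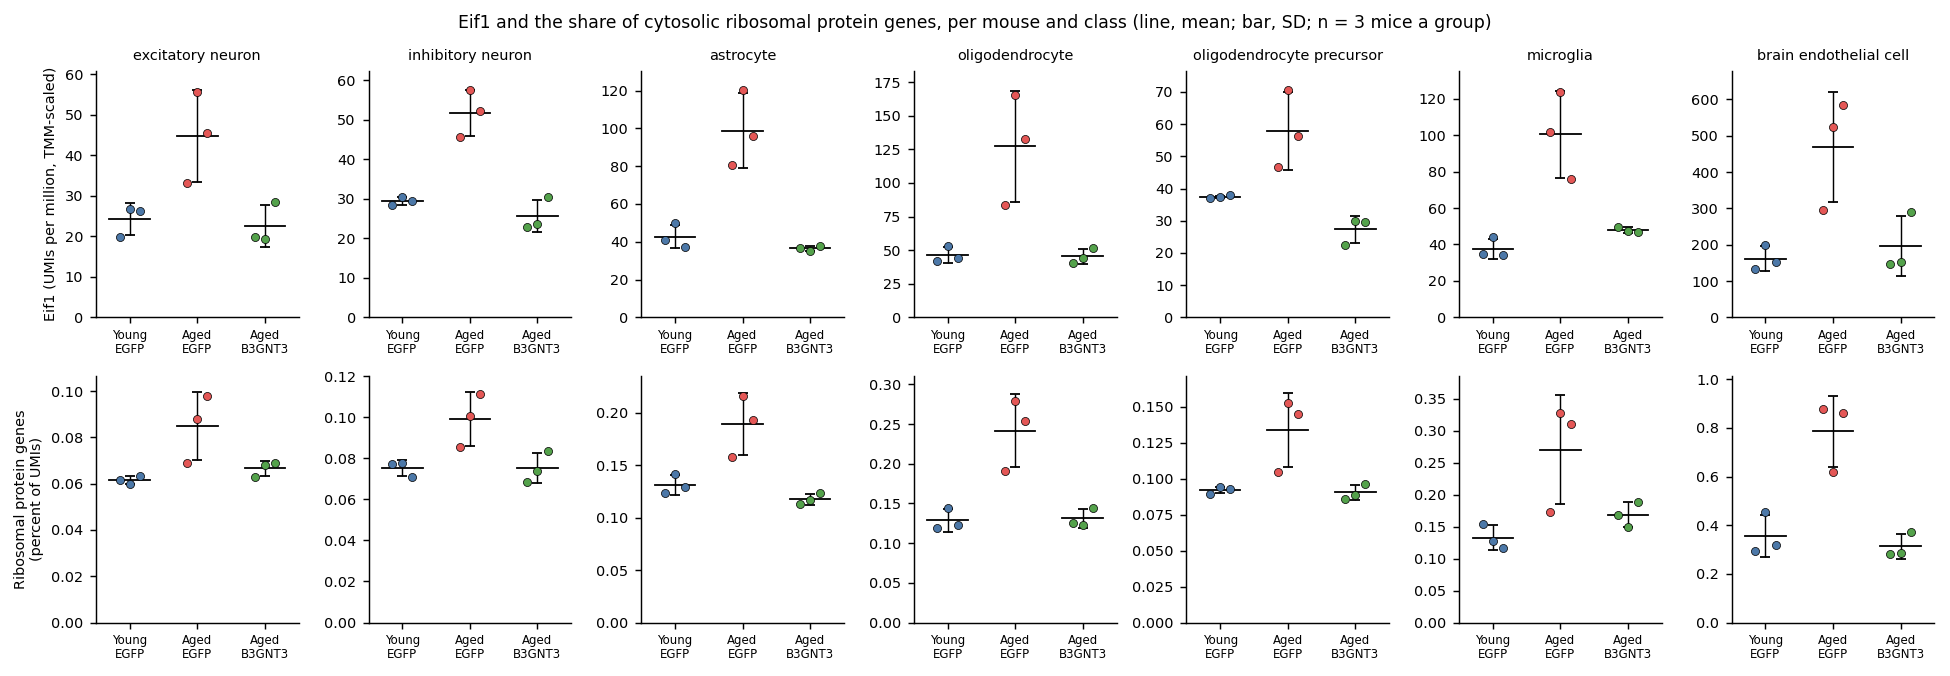
Top, Eif1 in TMM-scaled CPM for each mouse (points) of the 3 groups in 7 classes, with the group mean (line) and SD (bar), n = 3 mice per group, and bottom, the percent of UMIs from cytosolic ribosomal protein genes in the same mice. The Aged AAV-EGFP points lie above the other groups in all 7 upper panels and, in the lower ones, from 0.190% to 0.280% in oligodendrocytes.

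2 subunits of the scaffold eIF3 rose with age in glia. Eif3f, which also has deubiquitinase activity, read 10.0, 10.5 and 9.11 CPM in oligodendrocytes of the young mice, 15.9, 24.9 and 16.2 in the Aged AAV-EGFP mice and 12, 9.56 and 9.30 in the Aged AAV-B3GNT3 mice. The Aged AAV-EGFP mice did not overlap with either group, and the rise was 0.93 ± 0.22 on the log2 scale (adjusted p = 0.0112, edgeR). It rose by 0.98 ± 0.23 in astrocytes (adjusted p = 0.0154) and by 0.58 ± 0.15 in excitatory neurons (adjusted p = 0.0246, both edgeR). In inhibitory neurons the difference was 0.58 ± 0.19 and did not pass (adjusted p = 0.105, edgeR). Eif3d, a subunit that can itself bind the cap of some mRNAs, read 7.05, 6.69 and 6.17 CPM in oligodendrocytes of the young mice, 9.97, 13.8 and 12.8 in the Aged AAV-EGFP mice and 8.22, 6.44 and 5.45 in the Aged AAV-B3GNT3 mice. These came from 21 to 68 UMIs per mouse, the aged controls stood apart, and the rise was 0.87 ± 0.23 (adjusted p = 0.0186, edgeR). After free RNA was subtracted the astrocyte and oligodendrocyte calls of Eif3f had adjusted p values of 0.0907 and 0.0554, and that of Eif3d 0.0643 (edgeR). With 1 mouse left out the Eif3f call stood in 9 of 9 fits in oligodendrocytes, 8 in astrocytes and 4 in excitatory neurons, and the Eif3d call in 5. The other 11 tested eIF3 genes, among them the large subunits Eif3a, Eif3b and Eif3c, did not pass in any class in ageing.

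Of the genes around eIF2, the kinase gene Eif2ak2 rose in both neuron classes. It read 1.92, 0.993 and 1.06 CPM in excitatory neurons of the young mice, 2.81, 3.09 and 4.60 in the Aged AAV-EGFP mice and 4.15, 4.64 and 4.35 in the Aged AAV-B3GNT3 mice. Both aged groups lay above the young mice, from 26 to 126 UMIs per mouse. In ageing it rose by 1.41 ± 0.28 on the log2 scale (adjusted p = 0.0124, edgeR), and in inhibitory neurons by 1.24 ± 0.28, from 2.25 ± 0.724 to 5.35 ± 0.637 CPM (adjusted p = 0.0421, edgeR). With free RNA subtracted the first call stood (adjusted p = 0.0137) and the second was lost (0.203, edgeR). Of 9 fits that each left out 1 mouse, the first stood in 8, all but that without Young AAV-EGFP mouse 3 (adjusted p = 0.0629), and the second in 2. The other 3 kinases, Eif2ak1, Eif2ak3 and Eif2ak4, did not pass in any class. The summed level of the 7 astrocyte markers in excitatory neurons was 584 to 724 CPM in the young mice and 556 to 593 in the Aged AAV-EGFP mice. That of the 8 microglial markers was 27.1 to 37.8 and 40.5 to 42.8, and 30.1 to 42.1 in the Aged AAV-B3GNT3 mice, where that of the astrocyte markers was 577 to 621. All 7 astrocyte markers and 7 of the 8 microglial ones were detected in every library, and the part of such RNA in the Eif2ak2 result was not tested.

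Eif2s2, the beta subunit of eIF2, had the smallest adjusted p of the members that fell with age. In excitatory neurons it read 44.2, 44.5 and 45.3 CPM in the young mice, 29.0, 28.9 and 31.2 in the Aged AAV-EGFP mice and 42.9, 36.4 and 36.3 in the Aged AAV-B3GNT3 mice. The 3 groups did not overlap with one another. It fell by 0.59 ± 0.10 on the log2 scale with age (adjusted p = 0.00748, edgeR), a call that stood whichever mouse was left out, and by 0.57 ± 0.10 in inhibitory neurons (adjusted p = 0.0321, edgeR). After free RNA was subtracted the adjusted p was 0.0129 in excitatory neurons, and the inhibitory call was lost (0.0862, edgeR), which also stood in only 4 of 9 fits without 1 mouse. In excitatory neurons Eif2s3y, the Y-linked gamma subunit, fell from 114 ± 5.03 to 92.3 ± 5.52 CPM (log2 fold change -0.30 ± 0.08, adjusted p = 0.0368, edgeR, and 0.0543 after free RNA was subtracted). Eif2s1, the alpha subunit, changed by -0.29 and did not pass, and whether the subunits differed in their change was not tested. Eif2d, which can deliver the initiator tRNA without GTP, fell from 33.0 ± 1.21 to 26.1 ± 1.91 in the same cells (log2 fold change -0.34 ± 0.10, adjusted p = 0.0479, edgeR). With 1 mouse left out the Eif2s3y call stood in 3 of 9 fits and the Eif2d call in 2. The summed level of the 8 oligodendrocyte markers in excitatory neurons was also lower in the aged controls, at 115 to 207 CPM, than in the young mice, at 210.0 to 234, and it was 191 to 231 in the Aged AAV-B3GNT3 mice, with all 8 detected in every library. Its part in the changes of Eif2s2, Eif2s3y, Eif2d and Eif2b5 was not tested.

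2 of the 5 eIF2B genes were called, in opposite directions and in different classes. Eif2b5, the catalytic epsilon subunit, read 8.00, 8.20 and 9.51 CPM in excitatory neurons of the young mice, 10.2, 13.6 and 14.2 in the Aged AAV-EGFP mice and 9.63, 9.36 and 8.63 in the Aged AAV-B3GNT3 mice. The aged controls lay above the other groups, and the rise was 0.57 ± 0.15 on the log2 scale (adjusted p = 0.0295, edgeR). Eif2b3, the gamma subunit, read 33.1, 43.9 and 41.8 CPM in astrocytes of the young mice, 29.5, 17.2 and 13.5 in the Aged AAV-EGFP mice and 33.4, 52.2 and 29.3 in the Aged AAV-B3GNT3 mice. Its fall of 1.0 ± 0.28 (adjusted p = 0.0299, edgeR) separated young from aged control mice, whereas the Aged AAV-B3GNT3 mice overlapped with both. The call was lost after free RNA was subtracted (adjusted p = 0.106, edgeR). With 1 mouse left out the Eif2b5 call stood in 4 of 9 fits and the Eif2b3 call in 5.

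**Figure D4:**
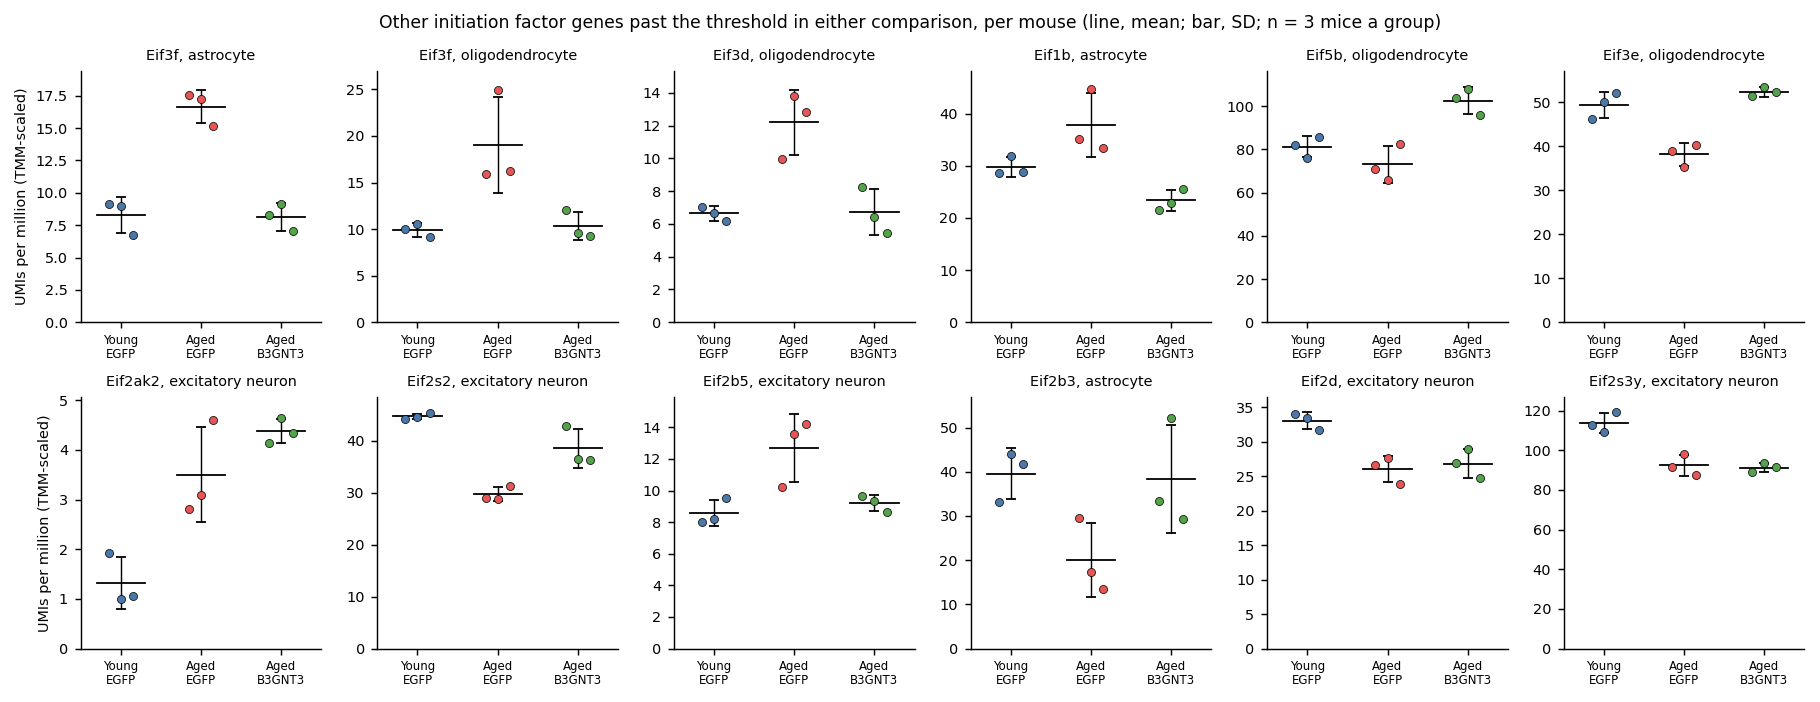
TMM-scaled CPM of 12 gene and class pairs called in either comparison other than Eif1, for each mouse (points) with the group mean (line) and SD (bar), n = 3 mice per group. Eif3f, Eif3d and Eif2b5 peak in the Aged AAV-EGFP mice, the points of both aged groups lie clear of the young ones for Eif2ak2, Eif2d and Eif2s3y, and Eif5b is highest in the Aged AAV-B3GNT3 mice.

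No gene of the cap complex, of the eIF4E-binding group or of joining and later steps passed in ageing in any class. The cap complex had 10 tested genes in excitatory neurons with a median log2 fold change of -0.12, and 10 in oligodendrocytes with a median of -0.09. Eif4g1, the scaffold of eIF4F, Eif4a2, one of its helicases, and Eif4ebp2, the main 4E-binding protein of brain, were among those that did not pass.

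The second comparison, Aged AAV-B3GNT3 against Aged AAV-EGFP, asked what the extra B3GNT3 was associated with in aged mice. It shares the Aged AAV-EGFP mice with the first, so the directions of the 2 comparisons are not independent of each other. Eif1 fell in 4 classes and Eif3f in 2, whereas Eif5b and Eif3e rose in oligodendrocytes. In oligodendrocytes 2 of 51 rose and 3 fell, where 3.84% of all tested genes rose and 6.13% fell. In astrocytes 0 rose and 3 fell (2.21% and 2.97% of all genes), in excitatory neurons 0 rose and 1 fell (0.955% and 1.61%), and in inhibitory neurons 0 rose and 1 fell (0.0131% and 0.0262%). In brain endothelial cells 0 of 23 passed (0.0602% of all genes rose and 1.32% fell), with 1 at an unadjusted p under 0.05. In oligodendrocyte precursors and in microglia 0 of 42 and 0 of 36 passed (0% of all genes in either direction in both), with 3 each at an unadjusted p under 0.05. DESeq2 called 0 members in those 3 classes. The median log2 fold change of the members was -0.15 in brain endothelial cells and lay between 0.04 and 0.08 in the other classes. That of all genes lay between -0.02 and 0.02. The falls in astrocytes and in inhibitory neurons were a larger share of the members than of all genes. In oligodendrocytes and excitatory neurons the shares were nearer to each other. The larger shares rest on 3 calls in astrocytes and 1 in inhibitory neurons, and no test of these differences was made.

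In astrocytes Eif1 fell by 1.44 ± 0.17 on the log2 scale (adjusted p = 0.00239, edgeR) and in oligodendrocytes by 1.48 ± 0.21 (adjusted p = 0.00488), and both calls stood in all 9 fits that left out 1 mouse. In excitatory neurons it fell by 0.99 ± 0.20, to 22.6 ± 5.13 CPM (adjusted p = 0.0399, edgeR), and in inhibitory neurons by 1.01 ± 0.13, to 25.7 ± 4.13 (adjusted p = 0.0312, edgeR). The neuronal calls stood in 3 and 4 of these 9 fits. They were lost after free RNA was subtracted (adjusted p 0.0796 and 0.119, edgeR), and the astrocyte and oligodendrocyte calls stood (0.0105 and 0.0288). In brain endothelial cells the log2 difference of -1.28 ± 0.32 did not pass (adjusted p = 0.0574, edgeR). The treated mice overlapped with the young mice in 5 classes, lay below them in oligodendrocyte precursors and above them in microglia, and Eif1 did not pass between these groups in any class.

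Eif1b, the close relative of Eif1, passed with AAV-B3GNT3 in astrocytes and in no class in ageing. In astrocytes it read 28.6, 32.0 and 28.8 CPM in the young mice, 35.1, 44.8 and 33.3 in the Aged AAV-EGFP mice and 21.6, 22.9 and 25.6 in the Aged AAV-B3GNT3 mice. The 3 groups were separate, and the fall with AAV-B3GNT3 was 0.70 ± 0.17 on the log2 scale (adjusted p = 0.0328, edgeR), whereas the ageing difference of 0.34 ± 0.17 did not pass (adjusted p = 0.2, edgeR). After free RNA was subtracted the adjusted p was 0.0813. Eif3f fell by 0.89 ± 0.21 in oligodendrocytes (adjusted p = 0.0221) and by 1.01 ± 0.24 in astrocytes (adjusted p = 0.0258), and Eif3d by 0.88 ± 0.22 in oligodendrocytes (adjusted p = 0.027, all edgeR). These calls too were lost after free RNA was subtracted, with adjusted p values of 0.0926, 0.095 and 0.0971 (edgeR). Of 9 fits without 1 mouse, the astrocyte calls of Eif1b and Eif3f each stood in 5, and the oligodendrocyte calls of Eif3d and Eif3f in 5 and 6.

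2 genes rose with AAV-B3GNT3. Eif5b, the GTPase that joins the large subunit, read 82.1, 76.2 and 85.5 CPM in oligodendrocytes of the young mice, 70.8, 65.8 and 82.5 in the Aged AAV-EGFP mice and 104, 108 and 95.9 in the Aged AAV-B3GNT3 mice. The treated mice lay above all others, while the young and aged controls overlapped. The rise was 0.49 ± 0.12 on the log2 scale (adjusted p = 0.0266, edgeR). Eif3e, another eIF3 subunit, rose from 38.1 ± 2.55 to 52.4 ± 1.09 CPM in oligodendrocytes, by 0.46 ± 0.12 (adjusted p = 0.0354, edgeR). Both calls stood after free RNA was subtracted (adjusted p 0.0477 and 0.0473, edgeR). Without 1 mouse the Eif5b call stood in 6 of 9 fits and the Eif3e call in 2.

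In Aged AAV-B3GNT3 against Young AAV-EGFP mice, Eif2ak2 was the gene that passed. It was higher in the treated aged mice by 1.73 ± 0.28 on the log2 scale in excitatory neurons (adjusted p = 0.00808, edgeR) and by 1.71 ± 0.28 in inhibitory neurons (adjusted p = 0.0188, edgeR). These calls stood in 7 and 5 of 9 fits without 1 mouse. In these classes 3.87% and 0.669% of all genes passed in either direction. In the other classes 0 members passed, where 2.79% of genes passed in astrocytes, 1.65% in oligodendrocytes, 0.0284% in oligodendrocyte precursors and 0% in microglia and brain endothelial cells. At an unadjusted p under 0.05 these 5 classes held 5, 6, 7, 1 and 1 members, and DESeq2 called 0 in each.

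Pairs of paralogues were set side by side in excitatory neurons. Reads of near-identical copies may be split between them, which makes the values of Eif1 and Eif1b, of Eif1a and Eif1ax and of Eif2s3x and Eif2s3y uncertain to that extent. Eif2s2, Eif1b, Eif3d, Eif5b, Eif2d and Eif2ak2 overlap a gene on the opposite strand, and Eif2b3 one on its own strand. Whether counting used strand is not given in the sources used here. Eif1a read 5.96, 6.73 and 7.03 CPM in the young mice, 5.90, 6.30 and 7.27 in the Aged AAV-EGFP mice and 6.49, 6.48 and 7.32 in the Aged AAV-B3GNT3 mice. Its X-linked copy Eif1ax read 9.47, 9.09 and 10.4, then 10.1, 10.3 and 10.0, then 11.8, 10.6 and 10.7. Neither copy of eIF1A, which binds the scanning ribosome beside eIF1, passed in any class in either comparison.

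The gamma subunit of eIF2 has an X-linked and a Y-linked gene, and only the Y-linked one was called in ageing. Eif2s3x read 23.6, 22.6 and 22.9 CPM in the young mice, 19.7, 22.9 and 24.3 in the Aged AAV-EGFP mice and 20.3, 20.2 and 21.7 in the Aged AAV-B3GNT3 mice, with young and aged controls overlapping. Eif2s3y read 113, 109 and 119, then 91.4, 98.3 and 87.3, then 88.9, 93.5 and 91.4, with both aged groups below the young mice. Whether the 2 genes differed in their change was not tested.

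The helicase genes Eif4a1 and Eif4a2 overlapped between all 3 groups. Eif4a1 read 39.8, 30.2 and 37.8 CPM in the young mice, 29.6, 28.6 and 33.6 in the Aged AAV-EGFP mice and 35.0, 37.5 and 30.3 in the Aged AAV-B3GNT3 mice. Eif4a2 read 50.5, 44.4 and 48.6, then 45.1, 49.6 and 50.8, then 50.5, 45.3 and 46.9. The cap-binding genes also overlapped. Eif4e read 74.9, 98.9 and 85.5 CPM in the young mice, 81.1, 76.4 and 76.5 in the Aged AAV-EGFP mice and 73.7, 69.6 and 77.2 in the Aged AAV-B3GNT3 mice. Eif4e3 read 7.84, 7.17 and 7.72, then 7.55, 7.33 and 5.72, then 7.02, 8.50 and 7.01. Eif5a and Eif5a2 encode the hypusine-carrying factor that helps the ribosome through difficult peptide bonds. Eif5a read 8.13, 6.92 and 7.60 CPM in the young mice, 7.60, 8.61 and 10.9 in the Aged AAV-EGFP mice and 7.92, 8.54 and 7.49 in the Aged AAV-B3GNT3 mice. Eif5a2 read 2.29, 1.91 and 2.52, then 1.83, 1.81 and 1.93, then 2.98, 2.66 and 3.24, so the treated mice lay above all others. The difference with AAV-B3GNT3 of 0.67 ± 0.20 on the log2 scale did not pass (adjusted p = 0.0866, edgeR).

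Whether a change differed between classes was tested on the difference of log2 levels within each mouse, with limma over all genes tested in both classes. Between excitatory neurons and oligodendrocytes the ageing change of 2 members differed (8.67% of 12944 genes did), Eif3d and the helicase gene Eif4a1. Eif4a1, named here after its values were seen, changed by -0.23 in excitatory neurons and 0.37 in oligodendrocytes on the log2 scale, and neither passed alone. With AAV-B3GNT3 the change of Eif3d differed (1.84% of genes did), a call that was lost whichever mouse was left out. Between excitatory neurons and astrocytes 0 members differed in ageing (3.93% of 12356 genes) and 0 with AAV-B3GNT3 (0%). For Eif1 the difference between excitatory neurons and oligodendrocytes was -0.54 ± 0.15 in ageing and just missed the threshold (adjusted p = 0.0524, limma), and it was 0.45 ± 0.15 with AAV-B3GNT3 (adjusted p = 0.137, limma). Between excitatory neurons and astrocytes the adjusted p for Eif1 was 0.367 and 0.328 (limma).

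The called members differ widely in span (the plot of span in oligodendrocytes). Eif1 spans 2212 bases, Eif1b 3099, Eif3f 8535, Eif2b5 10507, Eif3d 11816, Eif2s3y 18305 and Eif2s2 21526. Eif2ak2 spans 30010, Eif3e 32662, Eif2d 34478, Eif5b 57570 and Eif2b3 67905. Eif3g (4275), Eif5a (5245) and Eif4a1 (5488) are also short and were not called in either comparison. Their ageing changes in oligodendrocytes were 0.60, 0.47 and 0.37 on the log2 scale, in the same direction as that of Eif1. Across the 51 members tested in oligodendrocytes the log2 fold change in ageing had a Pearson r of -0.64 with the log10 of span, and across all 13192 genes with a span it was -0.41. With AAV-B3GNT3 the values were 0.61 and 0.43. In astrocytes they were -0.67 and -0.39 in ageing, and 0.58 and 0.34 with AAV-B3GNT3. In ageing the members' r was -0.40 in excitatory neurons, -0.37 in inhibitory neurons, -0.58 in microglia and -0.56 in brain endothelial cells, where all genes gave -0.23, -0.24, -0.40 and -0.42. In oligodendrocyte precursors it was weaker for the members (-0.25) than for all genes (-0.29). With AAV-B3GNT3 these 5 classes ranged from 0.35 to 0.53 for the members and from 0.04 to 0.39 for all genes. Genes share libraries and depth and are not replicates, so these are descriptions across genes, given with no test.

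**Figure D5:**
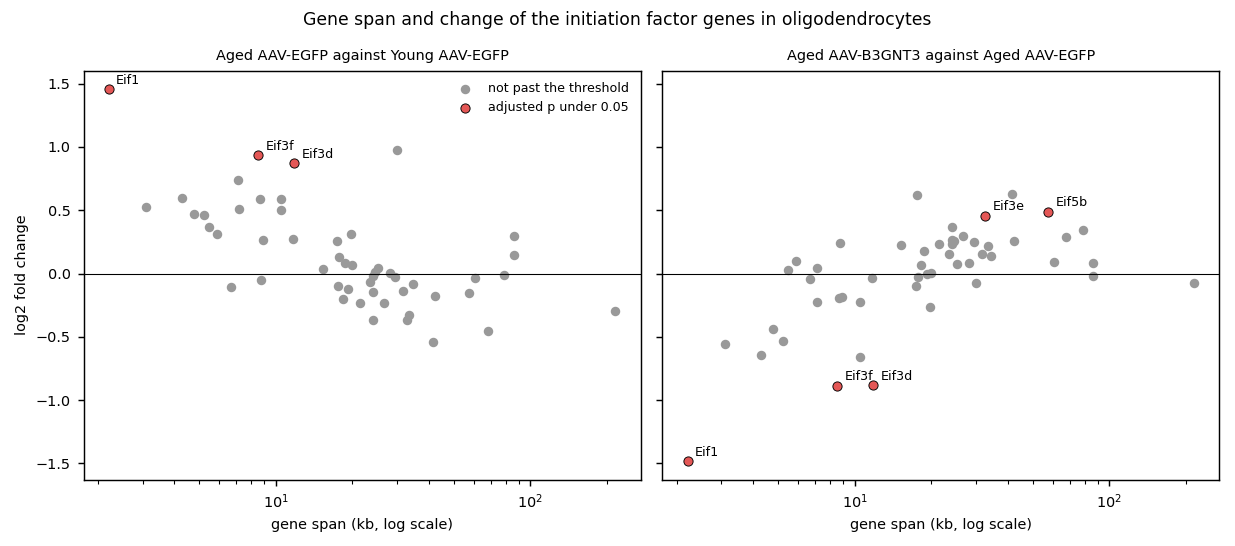
log2 fold change in oligodendrocytes of the 51 tested genes against gene span in kb (log scale), in ageing (left) and with AAV-B3GNT3 (right), with genes at an adjusted p under 0.05 in edgeR in red. Eif1, with a span of 2212 bases, lies at 1.46 on the left and at -1.48 on the right.

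Other genes of the pathway were called in small numbers. Of 46 listed genes of the eIF2 stress response, mTORC1, poly(A) binding and recycling, and elongation and release, 4 of 44 tested rose and 1 fell in oligodendrocytes in ageing, beside the 11.1% and 10.5% of all genes. In excitatory neurons 2 of 45 rose and 1 fell (7.38% and 6.56% of all genes), in inhibitory neurons 1 of 45 rose and 1 fell (2.04% and 1.11%), in astrocytes 1 of 42 rose and 1 fell (4.82% and 7.39%), and in brain endothelial cells 1 of 22 rose (1.3%). None passed in oligodendrocyte precursors or microglia in edgeR. Eef1a1, the elongation factor that carries aminoacyl-tRNAs, rose in all 5 of those classes, for example from 81.1 ± 3.65 to 167 ± 48.6 CPM in oligodendrocytes (log2 fold change 1.04 ± 0.17, adjusted p = 0.0022, edgeR). Abce1, which splits ribosomes for reuse, fell in 4 classes, for example from 49.4 ± 4.65 to 27.2 ± 2.69 CPM in astrocytes (log2 fold change -0.85 ± 0.17, adjusted p = 0.00573, edgeR). With AAV-B3GNT3, 4 of 44 genes fell in oligodendrocytes (6.13% of all genes), Eef1a1, Eef1a2, Eef1b2 and Akt1s1, an inhibitor of mTORC1. Eef1a1 also fell in excitatory neurons and in astrocytes, and Abce1 rose in astrocytes by 0.69 ± 0.17 on the log2 scale (adjusted p = 0.0337, edgeR). No tested gene of the eIF2 stress response list, which holds Atf4, Ddit3 and Ppp1r15a, passed in any class in either comparison. Of its 11 genes in the matrices, 10 were tested in each neuron class, 8 in astrocytes and 9 in oligodendrocytes. In oligodendrocyte precursors, microglia and brain endothelial cells 6, 5 and 4 were tested. The shares of all genes called are those given above for each comparison. These counts do not show that the response was alike between groups.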

How the data were processed

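The authors sorted Hoechst-stained single nuclei, prepared droplet libraries and deposited raw UMI counts per gene and barcode (GRCm38), already limited to called barcodes. Cell Ranger 4.0.0 stands in the submitters' processing notes and 7.2.0 in the matrix headers, and whether introns were counted is not given in the sources used here. Intron counting raises long genes and its absence raises short ones. Ages come from the study's methods. The authors' removal of free RNA and doublets is not in the deposited counts.

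Barcodes were filtered to 200 to 5000 detected genes and no more than 10% mitochondrial RNA. The nuclei most like simulated doublets were then removed at a rate that rose with the nuclei per library, which took 5.07% to 8.21%. Clusters (scanpy 1.11.5, leidenalg 0.10.2, Python 3.11.15; 2000 variable genes, 15 principal components, 20 neighbours, resolution 0.3) were named from listed markers at 2-fold or more in at least 10% of nuclei, with at least 3 markers. How strong markers of a second class had to be to leave a cluster unnamed was set after the clusters were seen. 2024 nuclei stayed unnamed. Replicate libraries differed by more than sampling noise (chi-square per degree of freedom 14.4 to 57.1).

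Sums per mouse and class were tested with edgeR 4.0.16 (R 4.3.3; all 9 mice in 1 fit, filterByExpr with a minimum count of 10, TMM, Benjamini-Hochberg adjustment within the class, threshold 0.05). Intervals on counts of 0 use 3 counts and cover counting error only. The difference between classes was tested with limma 3.58.1, and DESeq2 1.42.0 was an alternative. Free RNA was estimated from other classes' markers (15.2% to 69.5% of their level) and subtracted up to 30% as another alternative. The 30% limit was reached in every library of inhibitory neurons, oligodendrocyte precursors, microglia and brain endothelial cells. There the same share was taken from every library, so group differences in the amount of free RNA were not removed. In oligodendrocytes the limit was reached in Young AAV-EGFP mice 1 and 2 and Aged AAV-B3GNT3 mice 2 and 3. It was reached in no Aged AAV-EGFP mouse there, so the limit fell unevenly on the groups. In excitatory neurons it was reached in Aged AAV-B3GNT3 mouse 3 and Young AAV-EGFP mouse 3, and in astrocytes in Young AAV-EGFP mouse 1. On simulated data the edgeR test recovered only part of the planted changes, least often in microglia and then in brain endothelial cells.

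The genes named with values are those past the threshold in at least 1 class in either comparison. Values in every sample are given for the first 6 in ageing and the first 4 with AAV-B3GNT3, ordered by number of classes and then by smallest adjusted p, in the class of that p, and for 6 pairs of paralogues. Those of Eif2b3, and of Eif1 in oligodendrocytes and brain endothelial cells, were added after their values were seen. The members and lists were chosen with earlier results of these data known. Each library came from its own mouse. The count matrices used here hold no fold changes or p-values of the authors.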

Additional observations from a re-analysis of the deposited data

Results flagged for a closer look

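3 changes differed between excitatory neurons and oligodendrocytes, by limma on the within-mouse difference of log2 levels with adjustment over all genes tested in both classes. Of all 12944 genes, 8.67% differed in ageing and 1.84% with AAV-B3GNT3, so such differences were not particular to the members. For Eif3d the ageing change in excitatory neurons minus that in oligodendrocytes was -0.66 ± 0.14 (SE, adjusted p = 0.0265), with changes of 0.17 and 0.87 in the classes. With AAV-B3GNT3 it was 0.78 ± 0.14 (adjusted p = 0.0451), with changes of -0.06 and -0.88, and 0 members passed in any of the 9 fits that left out 1 mouse. For Eif4a1 the ageing difference was -0.59 ± 0.15 (adjusted p = 0.0405), with changes of -0.23 and 0.37. In ageing 0 members passed without Aged AAV-EGFP mouse 2 or 3 or without any 1 Young AAV-EGFP mouse. The 2 comparisons share the Aged AAV-EGFP mice.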

How the results depend on the processing

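No call of a named gene changed direction under any alternative run. Of the 27 calls, all 27 stood with DESeq2, with RLE size factors and with finer clusters, 26 with no doublets removed, 24 with no filter on low counts, 21 with a replicate block, 17 with only the groups compared in the fit and 12 with free RNA subtracted. The 4 calls in inhibitory neurons stood without the clusters that have Drd2 or Tacr1 among their leading genes, an alternative chosen after seeing the data. Counts of members called in ageing moved as follows. The share of all genes called was taken in the main fit only, so counts in the other runs have no background beside them. With free RNA subtracted 0 of 3 were called in inhibitory neurons, 1 of 3 in astrocytes, 1 of 3 in oligodendrocytes and 0 of 1 in brain endothelial cells. With only the groups compared, 1 was called in inhibitory neurons and 0 in brain endothelial cells, where 0 were called with no doublets removed. Finer clusters gave 1 in oligodendrocyte precursors and 1 in microglia, where no filter and no doublets removed also gave 1 each, against 0. With AAV-B3GNT3, DESeq2 called 2 in excitatory neurons against 1. Only the groups compared gave 0 there and 2 of 5 in oligodendrocytes. Free RNA subtracted gave 0 in excitatory neurons, 0 in inhibitory neurons, 1 of 3 in astrocytes and 3 in oligodendrocytes. No filter, no doublets removed and finer clusters each gave 1 in oligodendrocyte precursors against 0, the last pair also 1 in microglia, and no filter 1 in brain endothelial cells. Aged AAV-B3GNT3 against Young AAV-EGFP gave 4 with no filter, 4 with only the groups compared and 1 with free RNA subtracted, against 2. Where fewer samples entered the fit, fewer residual degrees of freedom were left. The cause was not tested for any of these moves.

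Samples with the same replicate number correlated at -0.527 to 0.247 in their deviations from group means, and other pairs at -0.513 to 0.531. A sample correlated best with its own number in 2 to 11 of 18 cases per class, fewest in microglia and most in oligodendrocytes. The ranges overlapped and these counts were not set against those of unpaired samples. Whether the replicate numbers pair the samples was therefore not tested. The replicate block left 0 members in inhibitory neurons in ageing and 0 with AAV-B3GNT3, 1 in brain endothelial cells with AAV-B3GNT3 against 0, 1 between Aged AAV-B3GNT3 and Young AAV-EGFP mice, and 1 and 0 members whose ageing and AAV-B3GNT3 change differed between excitatory neurons and oligodendrocytes.

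Leaving out 1 mouse at a time, the ageing counts ran from 1 to 11 in excitatory neurons, 0 to 6 in inhibitory neurons, 1 to 6 in astrocytes, 2 to 13 in oligodendrocytes, 0 to 2 in oligodendrocyte precursors, 0 to 2 in microglia and 0 to 1 in brain endothelial cells. The AAV-B3GNT3 counts ran from 0 to 4, 0 to 1, 1 to 4, 1 to 7, 0 to 1, 0 to 0 and 0 to 1 in the same order, and those of the treated aged against young mice from 0 to 3. Members whose change differed numbered 0 to 3 for excitatory neurons against oligodendrocytes in ageing, 0 to 0 with AAV-B3GNT3, and 0 to 2 and 0 to 0 against astrocytes. Without Aged AAV-EGFP mouse 1, 11 members passed in excitatory neurons and 13 in oligodendrocytes in ageing, and all 27 calls stood. The share of all genes called was not taken in these fits, so the counts cannot be read as particular to the members. Without mouse 2 of that group 8 of the 27 calls stood, without mouse 3 12, without Young AAV-EGFP mice 1, 2 and 3 18, 17 and 10, and without Aged AAV-B3GNT3 mice 1, 2 and 3 16, 16 and 22. In brain endothelial cells depth left 23 of 56 genes to test, and in microglia 36.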
